A study of Mus musculus with 107 samples.

Results

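Single eggs from mos -/- mice, labelled M3 and M1, were compared plate by plate. All libraries of either label were taken and eggs under 10000 counts were dropped, which left 20 M3 and 20 M1 eggs of 43 labelled, out of 107 eggs in the series. The labels do not define M1, M2 and M3, and a growth number given with each of the 61 mutant eggs equals the group number. The dropped eggs held 582 counts (M3 egg 11), 1526 (M1 egg 18) and 44 (M1 egg 23), all on Plate2. The difference from M1 to M3 was the question, within a genotype that both groups share.

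Both groups came from C57BL/6J females of 2 to 3 months that lack mos and received 5 IU of PMSG, a gonadotrophin, 48 h before their oocytes were taken. Immature oocytes were collected in 2.5 µM milrinone, which holds them at the germinal vesicle stage, then matured in culture and picked 38 to 40 h after germinal vesicle breakdown. Each library is 1 egg made with Smart-seq2, a full-length protocol that copies polyadenylated RNA and keeps no strand. The plate came from the library name. Plate scO, the first batch, held 4 M1 and 3 M3 eggs that passed, Plate1 held 5 and 6, and Plate2 held 11 and 11. Plate1 and Plate2 formed the second batch. For levels only, wildtype eggs on scO and 17 wildtype eggs activated with strontium chloride are also given. The activated eggs lie on a plate of their own, Plate4, so they cannot be told apart from that plate. A further 18 M2 eggs on the same plates entered the model only to estimate the spread. No label ties an egg to an animal, so eggs of 1 group and plate were summed, and the 9 sums were the units of the test.

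MOS is the germ-cell kinase that switches on the MAP kinase cascade during oocyte maturation, and through it the cytostatic activity that holds a mature egg at the second meiotic metaphase. Eggs without it fail to hold that arrest and tend to start development without sperm. A mature egg makes almost no new RNA, so its transcripts are a store laid down during growth, among them those for the zona pellucida coat, for the subcortical maternal complex and for many oocyte-specific F-box proteins.

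Sums ran from 2473478 counts (M1, Plate1) to 26211374 (M1, scO), and single M1 and M3 eggs that passed from 61689 to 8480254. The 17 egg markers were all detected in both groups, with a summed level of 6663 to 65940 CPM (counts scaled to a common library total) in M1 and 5915 to 22140 CPM in M3 eggs. Of 18 granulosa and cumulus markers, 13 were above 0 in M1 and 15 in M3, with summed levels of 137.2 to 1108 CPM and 94.42 to 389 CPM. Fshr, Ptx3 and Tnfaip6 were at 0 in both groups. Blood markers summed to 0 to 82.29 CPM in M1 and 14.79 to 144.9 CPM in M3, and those of theca, stroma and endothelium to 9.102 to 291.6 CPM and 32.71 to 365.3 CPM. Mos itself was at 5.723, 5.256 and 15.81 CPM in the M1 sums of scO, Plate1 and Plate2 and at 1.452, 4.044 and 3.405 CPM in those of M3, unscaled. The labels do not say which part of the gene was deleted, so these values do not check the genotype. M3 egg 8 stood apart from the other M3 eggs of Plate1, with 8364 genes detected at 60000 counts against 6920 in the next egg and 2.69% of counts from the mitochondrial genome against 0.486%. M1 egg 21 had 4013 genes at 60000 counts, the lowest of the M1 and M3 eggs on Plate2.

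The stretches just before the transcription start of 4 genes are shown because 3 of them were called lower in M3 eggs and the fourth, Zp3, encodes a partner of 2 called coat proteins. They are the 250 bases upstream of the start in RefSeq (GRCm38.p6), 5′ to 3′ on the gene's strand. Capitals mark CANNTG, the E-box letters read by basic helix-loop-helix proteins such as FIGLA, an oocyte factor known to act on zona genes. Fbxw18 lies at chr9:109702701-109702950 (minus strand), Fbxw16 at chr9:109449141-109449390 (minus strand), Padi6 at chr4:140742644-140742893 (minus strand) and Zp3 at chr5:135979855-135980104 (plus strand).
Fbxw18: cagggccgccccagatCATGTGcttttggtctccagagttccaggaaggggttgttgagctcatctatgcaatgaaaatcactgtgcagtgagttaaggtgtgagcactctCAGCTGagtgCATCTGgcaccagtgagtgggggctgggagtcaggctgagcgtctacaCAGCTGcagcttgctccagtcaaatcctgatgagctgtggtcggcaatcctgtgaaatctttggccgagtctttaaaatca
Fbxw16: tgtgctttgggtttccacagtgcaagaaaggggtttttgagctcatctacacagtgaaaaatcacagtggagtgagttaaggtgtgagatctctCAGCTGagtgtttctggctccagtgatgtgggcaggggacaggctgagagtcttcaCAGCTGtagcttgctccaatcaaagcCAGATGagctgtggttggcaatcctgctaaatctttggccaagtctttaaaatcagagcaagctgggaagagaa
Padi6: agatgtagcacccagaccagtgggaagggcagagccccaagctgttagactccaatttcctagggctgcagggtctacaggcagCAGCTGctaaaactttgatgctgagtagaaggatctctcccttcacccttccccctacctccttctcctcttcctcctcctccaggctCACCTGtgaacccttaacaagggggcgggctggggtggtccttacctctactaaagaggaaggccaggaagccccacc
Zp3: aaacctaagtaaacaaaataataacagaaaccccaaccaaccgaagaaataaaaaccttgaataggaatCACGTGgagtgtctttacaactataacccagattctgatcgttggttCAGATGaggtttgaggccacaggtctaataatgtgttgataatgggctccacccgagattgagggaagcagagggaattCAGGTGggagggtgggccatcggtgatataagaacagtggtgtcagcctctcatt
Fbxw18 held 4 matches, Fbxw16 3, Padi6 2 and Zp3 3. The motif reads the same class of letters on both strands, and 66% of 27025 promoters of that length held at least 1, with a median of 1. The Fbxw16 and Fbxw18 stretches matched at 87% of 230 aligned bases. The letters TAATTG and TAATTA, searched on both strands, were in none of the 4 and in 11.5% of all. A match is a description of letters only.

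Of 11609 genes tested, 6 passed an adjusted p of 0.05 (edgeR quasi-likelihood test with plate as a block, Benjamini-Hochberg), which is 0.0517% of them. M3 eggs were lower in 5 (0.0431%): Zp1, Zp2, Padi6, Fbxw16 and Fbxw18. They were higher in 1, Usp17la (0.00861%). At an unadjusted p under 0.05, 366 genes were higher (3.15%) and 550 lower (4.74%), 916 in all (7.89%), and all genes had a median log2 fold of 0.022. All folds are M3 over M1, on the log2 scale, fitted on sums scaled by TMM. The SE given with an edgeR fold is the size of the fold over the square root of the test's F statistic.

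**Figure D1:**
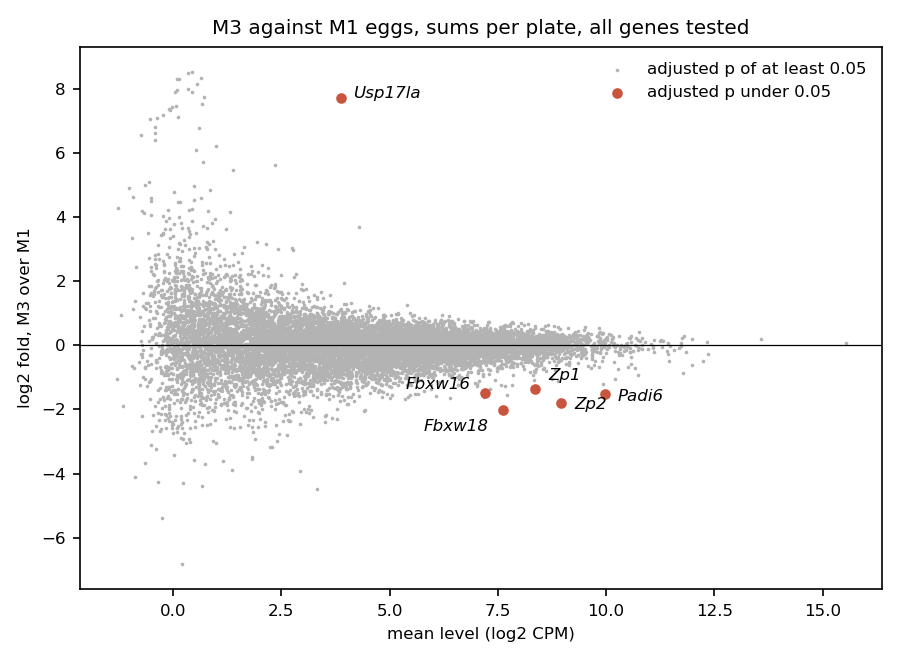
Log2 fold of M3 over M1 (vertical axis) against mean level in log2 CPM (horizontal axis) for each of the 11609 genes tested. Red points are the 6 called genes: the 5 that were lower lie at mean levels of 7.20 to 9.98 log2 CPM, and Usp17la lies apart at a fold of 7.72.

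Zp2 (chromosome 7, 120126772 to 120145291, minus strand, GRCm38) encodes a zona pellucida protein that sperm bind. On scO its level was 2713, 64.43, 135.7 and 317.9 CPM in M1 eggs 6, 7, 8 and 9, and 243.6, 97.08 and 83.77 CPM in M3 eggs 1, 2 and 3. On Plate1 the 5 M1 eggs had 357.2, 204.3, 313.6, 2741 and 5690 CPM, and the 6 M3 eggs ran from 242.3 through a median of 318.6 to 419.5 CPM. The 5690 CPM were those of M1 egg 14, a shallow library of 66611 counts. On Plate2 the 11 M1 eggs ran from 48.63 through 299.8 to 3134 CPM and the 11 M3 eggs from 131.5 through 241.6 to 396.8 CPM. The groups overlapped on every plate, since low M1 eggs sat among or under the M3 eggs. A run of high M1 eggs had no counterpart in M3: 9 of 20 M1 eggs were above the highest M3 egg of their plate, and no M3 egg was above the highest M1 egg. The share of all genes with such counts was not computed. Among uncalled genes, Bub1b had 11 such M1 eggs, Ubb 9 and Zar1 7, while Mapk3 and Spry4 had 1 each. The fitted log2 fold of Zp2 was -1.79 ± 0.23 (SE; adjusted p = 0.0397, edgeR), with M3 lower on 3 of 3 plates, by -2.32, -1.35 and -1.66 on scO, Plate1 and Plate2.

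Zp1 (chromosome 19, 10914287 to 10920632, minus strand), which cross-links the zona filaments, showed the same layout. Its levels on scO were 918.2, 52.63, 125.8 and 138.8 CPM in M1 eggs 6 to 9 and 156.4, 70.9 and 51.06 CPM in the 3 M3 eggs. The Plate1 M1 eggs had 277.7, 722.1, 439.0, 946.5 and 2192 CPM, against 217.0 to 417.0 CPM (median 313.6) in M3 eggs. M1 eggs of Plate2 ran from 48.63 through 288.8 to 1564 CPM and M3 eggs from 58.36 through 269.8 to 363.6 CPM. M1 eggs spread further upward on each plate, and 10 of 20 were above the highest M3 egg of their plate. The Zp1 log2 fold was -1.35 ± 0.20 (SE; adjusted p = 0.0397, edgeR), lower on 3 of 3 plates. Zp3, the third main zona protein and chosen after its values were seen, did not pass: its fold was -1.34 ± 0.30 (SE; adjusted p = 0.361, edgeR), with 8 of 20 M1 eggs above the highest M3 egg of their plate.

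Padi6 (chromosome 4, 140727355 to 140742643, minus strand) encodes a peptidylarginine deiminase of the egg's cytoplasmic lattices that the early embryo needs. Among the called lower genes it had the most M1 eggs above the highest M3 egg of their plate. M1 eggs 6 to 9 had 2137, 147.1, 274.9 and 508.3 CPM, and M3 eggs 1 to 3 had 223.1, 193.9 and 107.8 CPM. On Plate1 the M1 eggs had 396.3, 1888, 2903, 3184 and 8677 CPM against 686.6 to 1526 CPM (median 801.2) in M3. On Plate2 M1 eggs ran from 275.6 through 2189 to 5336 CPM and M3 eggs from 299.4 through 746.2 to 1295 CPM. The M3 median was the lower one on 3 of 3 plates, and 13 of 20 M1 eggs were above the highest M3 egg of their plate. The Padi6 fold was -1.53 ± 0.23 (SE; adjusted p = 0.0476, edgeR).

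**Figure D2:**
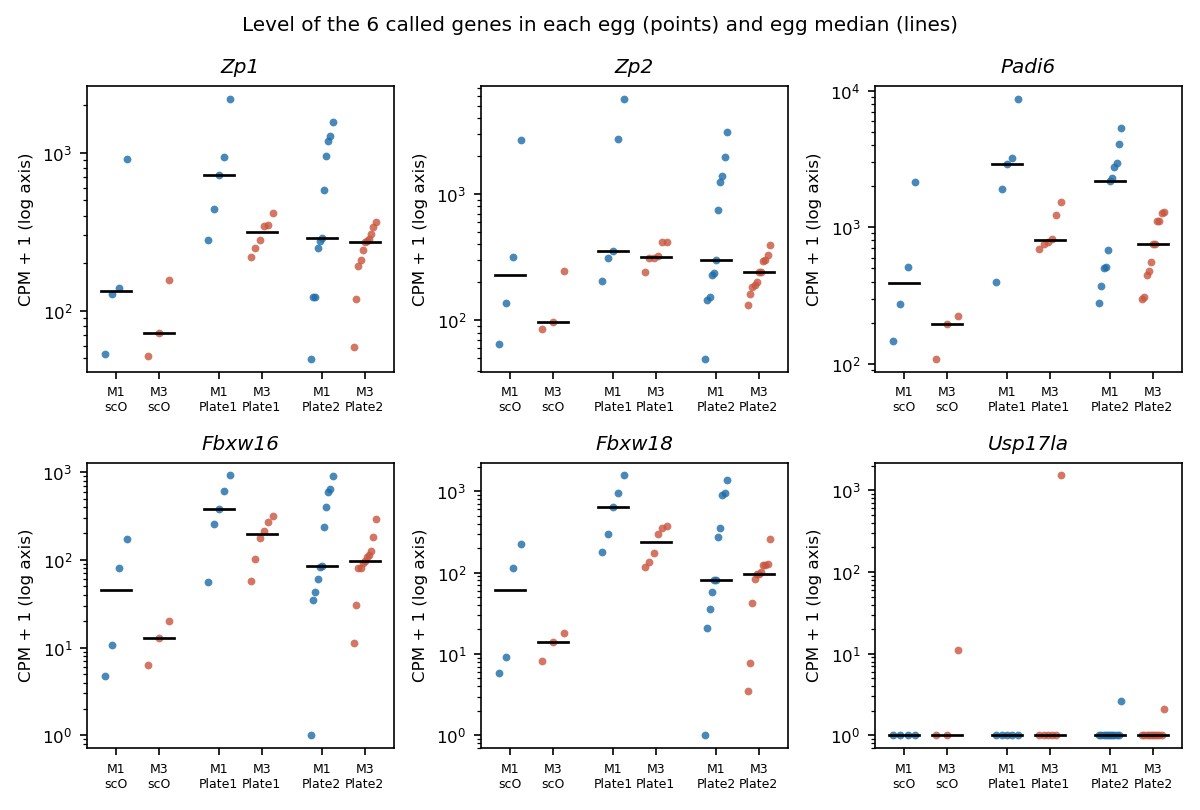
Level in each egg (points, CPM + 1 on a log axis) and the median of eggs (black lines) for the 6 called genes, by group (blue M1, red M3) and plate. For Zp2, 9 of 20 M1 eggs lie above the highest M3 egg of their plate; for Usp17la the point at 1520 CPM is M3 egg 8.

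Fbxw16 and Fbxw18 encode F-box proteins with WD repeats, of the kind that pick substrates for ubiquitin ligases. Fbxw18 was at 224.1, 4.918, 8.137 and 112.1 CPM in M1 eggs 6 to 9 and at 12.94, 17.1 and 7.111 CPM in M3 eggs 1 to 3. On Plate1 its M1 levels were 178.0, 645.2, 951.8, 299.1 and 1561 CPM, against 115.6 to 375.5 CPM (median 234.1) in M3. The Plate2 ranges were 0 to 1368 CPM in M1 and 2.537 to 255.2 CPM in M3. There the M1 median, 80.39 CPM, lay under the M3 median of 96.07 CPM, while 5 of 11 M1 eggs exceeded every M3 egg. The Fbxw18 fold was -2.01 ± 0.29 (SE; adjusted p = 0.0397, edgeR). Fbxw16 had 79.78, 3.771, 9.787 and 171.4 CPM in M1 eggs 6 to 9 and 11.78, 19.34 and 5.405 CPM in M3 eggs 1 to 3, and its fold was -1.50 ± 0.23 (SE; adjusted p = 0.0486, edgeR). Its Plate2 medians were 83.33 CPM in M1 and 95.24 CPM in M3, while 4 of 11 M1 eggs exceeded every M3 egg.

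Fbxw16 and Fbxw18 belong to a cluster of 14 Fbxw genes on chromosome 9 (109139447 to 109790670, GRCm38, GENCODE M21), all on the minus strand, followed up after these calls were seen. All 14 had a fold below 0, with a median of -1.24 and a range of -2.03 (Fbxw25) to -0.73 (Fbxw21). Of the 14, 2 were called lower (0.0431% of all genes), 12 were lower at an unadjusted p under 0.05 (4.74% of all genes), and 12 were lower on 3 of 3 plates (13.5% of all genes). DESeq2 called 8 of the 14, and 62 of 11609 genes in all. Fbxw24, the most abundant, had sums of 365.9, 1999.9 and 1926.7 CPM in M1 on scO, Plate1 and Plate2 against 83.26, 1198.5 and 1103.2 CPM in M3, with a fold of -1.22 ± 0.25 (SE; adjusted p = 0.30, edgeR). The 8 tested Fbxw genes elsewhere in the genome had a median fold of -0.057, and none passed. Their transcripts are alike, with 77.6% to 99.2% identity between pairs of the 14 (median 84.2%), so reads could be shared out between members in counting and the members do not give independent values.

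**Figure D3:**
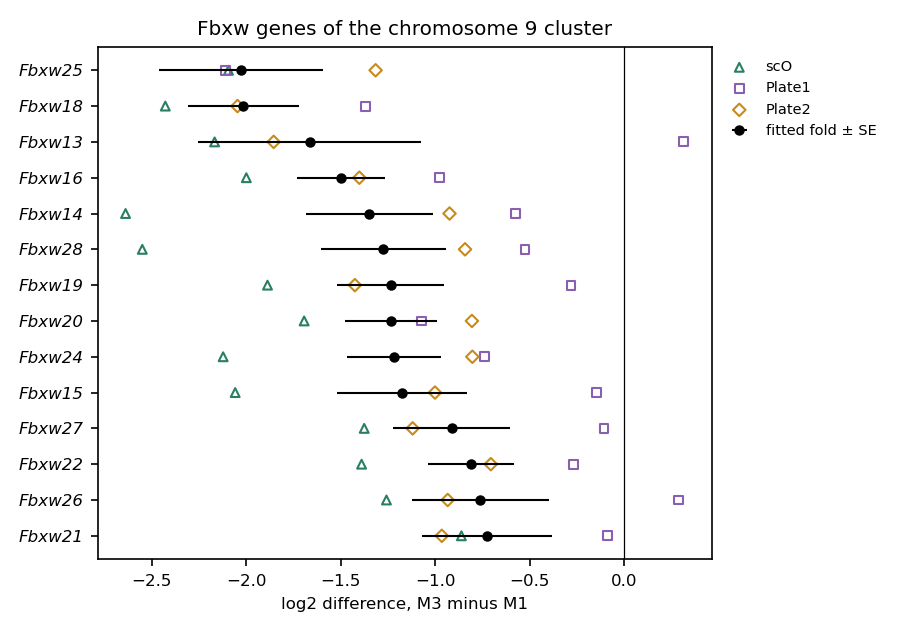
Fitted log2 fold ± SE (black) and the difference on each plate (open symbols) for the 14 Fbxw genes of the chromosome 9 cluster, ordered by fold. All 14 fitted folds lie left of 0; the plate values of Fbxw13 and Fbxw26 on Plate1 lie right of it.

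M1 egg 6 alone gave 83.6% of the Zp2 counts, 72.5% of Zp1, 68.6% of Padi6 and 65.9% of Fbxw18 in the M1 sum of scO. M1 egg 9 gave 61.1% of Fbxw16 there. In the M1 sum of Plate1, egg 11 gave 52.1% of Fbxw16, 51.4% of Fbxw18, 47.6% of Zp1 and 41.2% of Padi6. That egg had 4618 genes at 60000 counts and 1.17% mitochondrial counts. Egg 13 gave 46.3% of Zp2 on Plate1. In the M1 sum of Plate2, egg 15 gave the most of each, from 27.8% (Zp1) to 42.1% (Fbxw18). No fit leaving out M1 egg 9, 11, 13 or 15 was run. Without M1 eggs 6 and 21 the folds were -1.15 (Zp2), -0.91 (Zp1), -1.10 (Padi6), -1.47 (Fbxw16) and -1.63 (Fbxw18), and no gene passed, with adjusted p of 0.0694 to 0.854. With M3 egg 8 left out as well they were -1.11, -0.89, -1.10, -1.48 and -1.63, again with 0 genes past the test and 618 at an unadjusted p under 0.05. Leaving out M3 egg 8 alone kept these 5 calls, with folds of -1.76, -1.33, -1.54, -1.51 and -2.02. Without M1 egg 6 alone no gene passed, and without M1 egg 21 alone these 5 did. Without egg 6 the Zp2, Zp1 and Padi6 folds were nearer to 0 (-1.12, -0.92 and -1.11). Fbxw16 was at -1.48 with an unadjusted p of 2.14e-05 and Fbxw18 at -1.62 with 7.4e-06, and their adjusted p over all genes was 0.0827 each (edgeR). No gene passed either with the M1 and M3 sums alone, with the second batch alone, or with means of log2 levels over eggs in place of sums. Nor did any without eggs under 100000 counts, a setting chosen after the data were seen. The folds there were -1.697 (Zp2), -1.313 (Zp1), -1.484 (Padi6), -1.475 (Fbxw16) and -1.994 (Fbxw18). All 5 kept a fold below 0 in each of the settings tried.

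Zp1 and Zp2 went together from egg to egg among the 11 M1 eggs of Plate2 (Spearman's rho 0.96, Pearson's r 0.94), as did Fbxw16 and Fbxw18 (0.99 and 0.99), Zp2 and Padi6 (0.93 and 0.92) and Zp2 and Fbxw18 (0.85 and 0.86). In the 11 M3 eggs of that plate the same pairs had rho of 0.65, 0.65, 0.49 and 0.82 and r of 0.67, 0.94, 0.56 and 0.76. Each pair shares a library and its depth, so these are descriptions. Zp3 went less closely with the called genes in these M1 eggs. Its rho and r were 0.65 and 0.24 with Zp1, 0.76 and 0.48 with Zp2, and 0.73 and 0.27 with Padi6. They were 0.44 and 0.02 with Fbxw16 and 0.45 and 0.08 with Fbxw18. On Plate1 M1 egg 14, with 66611 counts, had the highest level of Zp1, Zp2, Padi6 and Fbxw18. On Plate2 M1 egg 22, with 180295 counts, had the highest level of Zp1, Zp2 and Padi6, and M1 egg 15 that of Fbxw16 and Fbxw18. The 5 highest M1 eggs for Zp1, Fbxw16 and Fbxw18 were the same eggs 15, 17, 20, 21 and 22.

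The wider reach of M1 eggs was not limited to the called genes. Among 2207 genes of at least 100 CPM, with each egg thinned to 60000 counts, the SD of log2 levels over eggs was wider in M1 on all 3 plates for 908 genes (41.1%) and wider in M3 on all 3 for 31 (1.4%). The median SD in M1 and M3 was 0.692 and 0.468 on scO, 1.116 and 0.605 on Plate1, and 0.915 and 0.672 on Plate2. M1 eggs also reached lower complexity: their genes at 60000 counts ran from 4013 to 7135 on Plate2 against 6077 to 6875 in M3, and from 4618 to 6353 on Plate1 against 6635 to 8364. The 2 shallowest eggs, M1 egg 14 with 66611 counts and M1 egg 19 with 61689, were both M1. The part of depth and complexity in the spread was not tested.

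Usp17la (chromosome 7, 104857009 to 104862667, plus strand), a deubiquitinase gene of a repeated family that is switched on when the embryonic genome awakens, was the single call in the other direction. Its M3 counts were 745 in egg 8 of Plate1, 60 in egg 1 of scO and 1 in egg 14 of Plate2, and the other 17 M3 eggs had none. In M1 it had 1 count, in egg 26. That is 806 of 33739266 counts against 1 of 36526336, a ratio of 872.6 with a 95% exact interval of 156.2 to 34507.3 that covers counting error only. Its fitted fold was 7.72 ± 1.12 (SE; adjusted p = 0.0397, edgeR). Both fold and SE depend on the prior count added to the M1 sums. Without egg 8 the gene did not reach the filter for testing. M3 egg 8 was the highest M3 egg for 22 of the 29 genes found from a list of zygotic genome activation transcripts, held over 50% of all M3 counts for 17, and was above every M1 egg for 21. It had 2051 CPM of Usp17le, 551 CPM of Zscan4d, a marker of the 2-cell embryo, 346.9 CPM of Zfp352 and 210.2 CPM of Duxf3, of the Dux family whose protein opens this programme. These genes were chosen after their values were seen. The next M3 egg had 5.058, 17.52, 1.99 and 4.147 CPM. Wildtype eggs activated with strontium had a median of 32.67 CPM of Usp17la, up to 374.5 CPM, on another plate, and egg 8 was above each of those 17 eggs for this gene. Members of the Usp17l and Zscan4 families are near-identical copies, and their reads may be shared out between members. The part of egg 8's higher gene number and mitochondrial share in these values was not tested. How often egg 8 was the highest M3 egg, held most M3 counts or exceeded every M1 egg among all genes was not computed.

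**Figure D4:**
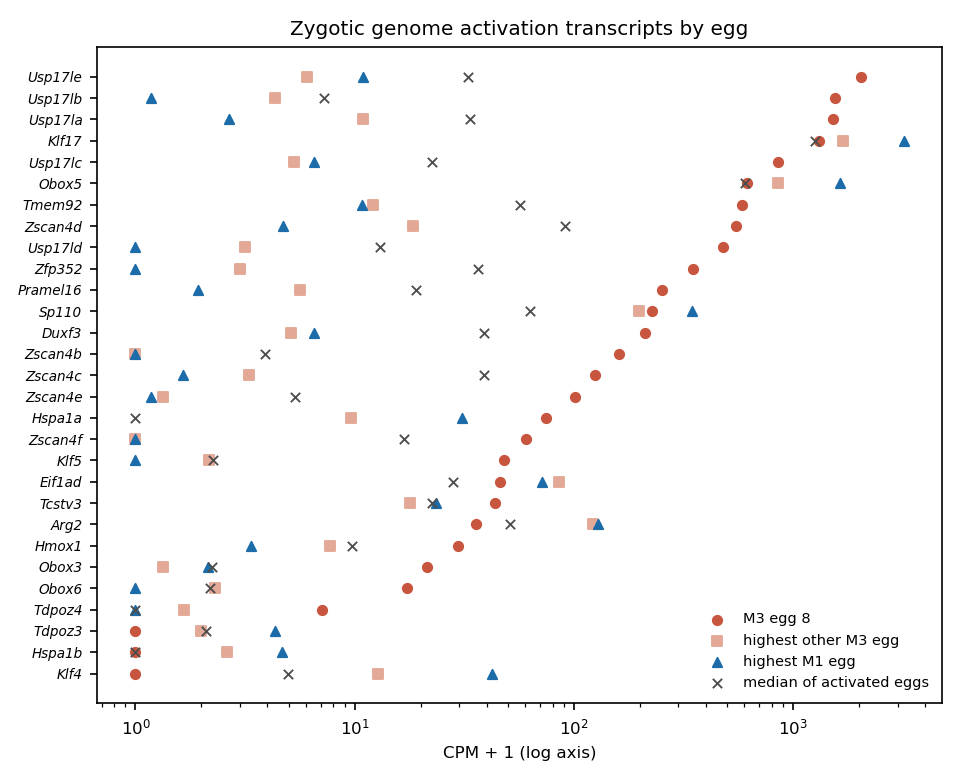
Level of 29 zygotic genome activation transcripts (CPM + 1, log axis) in M3 egg 8, in the highest other M3 egg, in the highest M1 egg and as the median of the 17 activated wildtype eggs. Egg 8 is the highest M3 egg for 22 of the 29. The share of all genes for which it is the highest was not computed.

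By gene group, the coat, fusion and secreted factor list had 2 of 18 tested members called, Zp1 and Zp2, both lower, against 0.0517% of all genes. Its median fold was -0.73, 17 of 18 members were below 0 and 10 (55.6%) were lower on all 3 plates, against 13.5% of all genes. These members include H1f8, at -0.88, which encodes a linker histone and is no coat, fusion or secreted factor. Gdf9, the growth factor by which the oocyte drives its cumulus cells, was chosen after its values were seen. It had a fold of -1.04 ± 0.17 (SE) and did not pass (adjusted p = 0.0554, edgeR), with 10 of 20 M1 eggs above the highest M3 egg of their plate. Its partner Bmp15 was at -0.09 ± 0.21 (SE; adjusted p = 0.938, edgeR). Plat, tissue plasminogen activator, was at -1.07 ± 0.22 and Astl, the ovastacin protease that cleaves ZP2 after fertilisation, at -0.80 ± 0.22, both with an adjusted p over 0.05 (0.353 and 0.500, edgeR). Bmp15, Plat and Astl were chosen after their values were seen. DESeq2 called 5 members of this list, Gdf9, Plat, Zp1, Zp2 and Zp3, and 62 of 11609 genes in all.

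Of 29 maternal effect genes 1 was called, Padi6, against 0.0517% of all genes, and 23 of 29 had a fold below 0 against 48.2%, with a median of -0.21. Of members of the subcortical maternal complex, the protein assembly under the egg membrane, Khdc3 was at -1.56 ± 0.25 (SE; adjusted p = 0.0554, edgeR), Nlrp5 at -0.72 ± 0.27, Ooep at -0.63 ± 0.39 and Tle6 at -0.17 ± 0.30, with adjusted p of 0.582, 0.718 and 0.907 for the last 3. On scO, Plate1 and Plate2 the difference was -1.66, 0.12 and -0.65 for Nlrp5, -2.21, 0.39 and -0.041 for Ooep, and -1.32, 0.49 and 0.16 for Tle6. DESeq2 called Khdc3 beside Padi6 in this list, and 62 of 11609 genes in all. These members were chosen after their values were seen. Among 17 egg markers 3 were called (0.0517% of all genes), the same Zp1, Zp2 and Padi6, and the median was -0.72. Zar1, a factor that stores maternal RNA, had a fold of -0.91 ± 0.24 (adjusted p = 0.498, edgeR) and H1f8, the oocyte linker histone, -0.88 ± 0.28 (adjusted p = 0.555, edgeR).

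Of the 17 members of the MOS and MAP kinase cascade, none was called and the median fold was -0.023. At an unadjusted p under 0.05 (edgeR), 1 was higher (3.15% of all genes) and 2 lower (4.74% of all genes). Mos had a fold of -1.62 ± 0.63 (SE; adjusted p = 0.588, edgeR), and -0.39 ± 0.64 without M3 egg 8 and M1 eggs 6 and 21. Its highest M1 eggs were at 17.87, 90.08 and 135.2 CPM on scO, Plate1 and Plate2 against 3.317, 6.084 and 29.57 CPM for the highest M3 eggs. Mapk3, which encodes the ERK1 kinase, was at 0.26 ± 0.23 (adjusted p = 0.789, edgeR). Spry4, a feedback inhibitor whose transcription follows ERK activity, was at 0.43 ± 0.15 (adjusted p = 0.555, edgeR), above 0 on 3 of 3 plates, in a list of 15 ERK-responsive genes with none called and a median of 0.54. Without M3 egg 8, 11 members of that list could be tested and the median was 0.375. It was 0.251 with M1 eggs 6 and 21 left out as well. With eggs thinned to 61689 counts, 5 members of that list could be tested and the median was -0.065.

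Meiotic and cell cycle lists had no member called by edgeR. Bub1b, a spindle checkpoint kinase chosen after its values were seen, was at -1.10 ± 0.25 (SE; adjusted p = 0.387, edgeR), lower on 3 of 3 plates with 11 of 20 M1 eggs above the highest M3 egg of their plate. It was called by DESeq2 (62 of 11609 genes in all), with no filter on low counts (128 of 17176) and with eggs thinned (16 of 6020). With no filter edgeR also called Kif2c and Tubb6 of the spindle list. Ccnb1, cyclin B1, was at -0.06 ± 0.18 (SE), Pttg1, the securin that holds separase, at -0.68 ± 0.29, Cdca8 of the chromosomal passenger complex at -0.01 ± 0.17 and Kif23, a kinesin of the central spindle, at 0.10 ± 0.19, with adjusted p (edgeR) of 0.960, 0.614, 0.994 and 0.913. Smc4 of condensin was at -0.52 ± 0.29, Mcm2 of the replicative helicase at -0.16 ± 0.21 and the actin linker Rdx at -0.08 ± 0.19, also uncalled. The p53 inhibitor Mdm4 was at 0.19 ± 0.17, the decapping factor Dcp1a at 0.28 ± 0.17, the calmodulin kinase Camk2g at -0.42 ± 0.19 and the survival factor Bcl2l10 at -0.17 ± 0.17, none past the test.

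The rule for named genes took no called gene higher in M3 at 4 log2 CPM or more, and was filled with the 5 of lowest p that were higher on all 3 plates. Ctdp1, an RNA polymerase II phosphatase, was at 1.24 ± 0.34 (SE) and Fem1c, a ubiquitin ligase adaptor, at 1.01 ± 0.28, each with an adjusted p of 0.498 (edgeR). Ablim3, an actin-binding protein, was at 1.15 ± 0.36, Gabra3, a GABA receptor subunit, at 1.15 ± 0.37 and Pnrc1, a nuclear receptor coregulator, at 1.27 ± 0.41, each with an adjusted p of 0.555. Their M3 sums were above the M1 sums on each plate, for Ctdp1 46.74, 13.97 and 26.98 CPM on scO, Plate1 and Plate2 against 14.72, 6.611 and 14.79 CPM.

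Some metabolic lists had medians below 0 with no member called by edgeR. DESeq2, which called 62 of 11609 genes in all, called 3 respiratory chain genes (Cox4i1, Ndufs7 and Ndufv2), Psma1 of the proteasome and Rps14 of the ribosome. With no filter on low counts edgeR called 5, 1 and 1 genes of these lists, and 128 of 17176 genes in all. Of 37 nuclear genes of the respiratory chain 35 had a fold below 0 (48.2% of all genes did). Of the 37, 23 (62.2%) were lower on all 3 plates (13.5% of all genes) and 16 were lower at an unadjusted p under 0.05 (4.74% of all genes), with a median of -0.82. Cox4i1, a cytochrome oxidase subunit, was at 22.59, 22.04 and 22.81 CPM in the M1 sums of scO, Plate1 and Plate2 and at 6.783, 8.177 and 7.004 CPM in those of M3, with a fold of -1.62 ± 0.40 (SE; adjusted p = 0.498, edgeR). Ndufs7 of complex I was at -2.0 ± 0.46 and Ndufv2 at -1.30 ± 0.33, with adjusted p of 0.387 and 0.498, and these 3 were chosen after their values were seen. The most abundant member, Atp5f1b of ATP synthase, was at -0.16 ± 0.20. Of 31 proteasome genes 29 were below 0 (median -0.47; Psmd2 at -0.04 ± 0.19), and of 39 cytosolic ribosomal protein genes, beside the same 48.2% of all genes, 35 were (median -0.66; Rpl4 at -0.59 ± 0.34). With means over eggs in place of sums the respiratory chain, proteasome and ribosomal protein medians were -0.52, -0.08 and -0.16, where 4 classes of all genes by length lay at 0.10 to 0.39. The 9 tested mitochondrially encoded genes had a median of 0.33 (mt-Co1 at 0.55 ± 0.32).

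Transcript length moved with these lists. With genes ranked by their longest annotated transcript and cut into 4 equal classes, from short to long, the median fold of all tested genes was -0.21, 0.00, 0.08 and 0.16, and 65%, 49.9%, 42.7% and 34% of genes were below 0. The order held on scO (-0.29 to 0.23), Plate1 (0.01 to 0.20) and Plate2 (-0.11 to 0.06), and without M3 egg 8 and M1 eggs 6 and 21 (-0.17 to 0.13). The median longest transcript was 1363 bases for the respiratory chain list, 1120 for ribosomal proteins, 1819 for the proteasome and 1607 for the coat list, against 1685 in the shortest class. Those 4 medians, at -0.47 to -0.88 for the members with a length, lay under the -0.21 of that class. The 9 mitochondrially encoded genes went the other way, with a median of 1038 bases and a median fold of 0.33. The part of length in these lists was not tested.

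**Figure D5:**
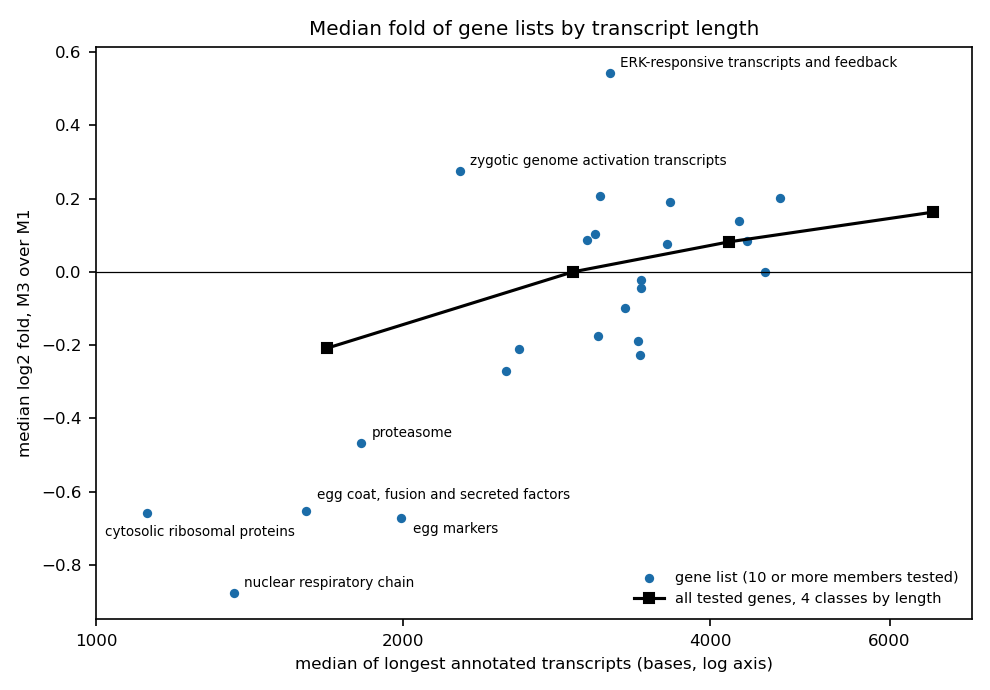
Median log2 fold of each gene list with at least 10 tested members (blue points) against the median of their longest annotated transcripts in bases (log axis), for members found in the annotation; the black line joins the 4 length classes of all tested genes. Among the lists shown, those of short transcripts lie lowest, with the nuclear respiratory chain at -0.88. The 9 mitochondrially encoded genes are too few to be shown.

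The difference between M3 and M1 was also set against batch. No gene passed the test of whether scO differed from the mean of Plate1 and Plate2 (0 of 11609, lowest adjusted p 0.406, edgeR; 424 or 3.65% at an unadjusted p under 0.05). With limma voom 2 genes did, Nlrp14 and Ooep, both lower in M3 on scO relative to the other plates (-2.21 and -2.38). Fbxw24 differed by -1.36 ± 0.35 (SE) between batches, with an adjusted p of 1 (edgeR). The median fold of the 14 clustered Fbxw genes was -0.77 on the plates of the second batch alone, where 0 genes passed.

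M2 sums lay between the others for some of the called genes. Zp2 was at 322.5, 512.3 and 666.2 CPM in M2 on scO, Plate1 and Plate2, between M1 (745.0, 793.7 and 766.2 CPM) and M3 (148.2, 311.8 and 241.8 CPM) on each plate. Padi6 was at 221.9, 1228.3 and 1403.7 CPM in M2, between 714.3, 1998.6 and 1809.6 CPM in M1 and 189.6, 862.0 and 687.3 CPM in M3. Fbxw18 was at 10.18 CPM in M2 on scO, under the 13.67 CPM of M3. Wildtype eggs on scO had a median of 120.7 CPM of Zp2, between the M3 median of 97.08 CPM and the M1 median of 226.8 CPM. For the other 4 lower genes the wildtype median over eggs was above both medians. It was 212.7 CPM against 132.3 in M1 and 70.9 in M3 for Zp1, and 640.1 against 391.6 and 193.9 CPM for Padi6. It was 86.99 against 44.78 and 11.78 CPM for Fbxw16, and 89.29 against 60.12 and 12.94 CPM for Fbxw18. In unscaled sums of scO the order was another for Zp1, Padi6 and Zp2. The wildtype sum lay under that of M1 for Zp1 (286.5 against 297.5 CPM) and Padi6 (588.6 against 731.1 CPM), and above that of M3. For Zp2 it lay under both M1 and M3. For Fbxw16 and Fbxw18 the wildtype sum was above both, as the median was.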

How the data were processed

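The authors deposited 1 table of counts per gene and egg, 21564 genes by 107 eggs. Per the submitters' processing notes, STAR was the aligner, HTSeq the counter and GRCm38 (mm10) the build. Not given in the sources used here were their versions, the gene models and the strand option. Counts of eggs with at least 10000 were summed per group and plate. They were scaled by TMM and filtered with filterByExpr (minimum count 10), then tested with edgeR 4.0.16 (R 4.3.3) by a robust quasi-likelihood fit with plate as a block and 4 residual degrees of freedom, Benjamini-Hochberg adjusted over all genes tested. Such p-values measure how differently the groups shifted from plate to plate, with each gene's spread drawn toward that of the other genes. The median prior degrees of freedom were 8.623, against the 4 residual ones. Eggs of a plate may share animals. A CPM value of an egg is a share of its own counts, so less of a transcript cannot be told apart from more of the others. CPM values of sums are TMM-scaled, and those of eggs are not.

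The groups, lists and tests were chosen with earlier results of these data known. Named genes were called genes of at least 4 log2 CPM, a fold of at least 2 and 1 sign on all plates (the 12 highest and 12 lowest, filled to 5 by p), up to 3 called members or the most abundant member of each list, Mos and Mapk3. Of the genes so named, 1 is not reported here. Others are said to be chosen after their values were seen. Alternatives were other scalings, filters, tools (DESeq2 1.42.0, limma 3.58.1), blocks and eggs. DESeq2 was given 11609 genes but adjusted p over the fewer genes that its own filter on low means kept. In counts simulated for M3 against M1 over 11609 genes, the test called 42 of 100 genes changed 2-fold, 99 of 100 changed 4-fold and 8 unchanged genes. The changed genes were drawn only from those of at least 4 log2 CPM. Counts were drawn per sum and not per egg, so a single egg that dominates a sum was not modelled, and these shares may not hold for the real sums. Lengths came from GENCODE M21, for 96.2% of tested genes, matched by symbol.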

Additional observations from a re-analysis of the deposited data

Results flagged for a closer look

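In M1 eggs of scO, M1 eggs of Plate1 and M3 eggs of Plate1 (4 to 6 eggs each), 9 of 40 sets of values held 1 egg far from the rest by Dixon's criterion. For independent, normally distributed values chance gives about 1 in 20. These sets share eggs, hold CPM values without logs and include genes picked from these data. The 9 of 40 can therefore not be set against that rate. On scO, M1 egg 6 had 2713 CPM of Zp2 (next egg 317.9 CPM), 918.2 CPM of Zp1 (next 138.8 CPM) and 1333 CPM of Zp3 (next 219.9 CPM). M1 egg 14 of Plate1, of 66611 counts, had 90.08 CPM of Mos (next 19.72 CPM) and 24.1% of counts in its 50 most abundant genes (next 20.6%). M1 egg 11 of Plate1 had 1.17% mitochondrial counts (next 0.335%).

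M3 egg 8 of Plate1 had 1520 CPM of Usp17la where the other 5 eggs had 0, and 8364 genes at 60000 counts (next 6920). Its mitochondrial share was 2.69% (next 0.486%).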

How the results depend on the processing

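The main test called 6 genes, 1 higher and 5 lower in M3. No filter on low counts gave 128 (31 higher, 97 lower), and DESeq2 gave 62 (2 and 60). RLE and upper quartile scaling, eggs under 10000 counts kept, no mitochondrial genes and no M3 egg 8 gave 6 each (without egg 8, 0 higher), voom gave 7 (0 higher) and a trend over M1, M2 and M3 gave 5. Thinning each egg to 61689 counts gave 16 (0 and 16), and batch in place of plate gave 1, Zp2 (0 and 1). The count was 0 (0 higher, 0 lower) with a stricter filter, a test against a fold of 1.2, M1 and M3 sums alone, means over eggs, the second batch alone, without M1 eggs 6 and 21, without these and M3 egg 8, without M1 egg 6 and without eggs under 100000 counts, the last 2 chosen after the data were seen, as was leaving out M1 egg 21, which gave 7. Between 573 and 1178 genes had an unadjusted p under 0.05 in those settings. M1 and M3 share replicate numbers, but these only name eggs and pair none. No paired analysis was possible because the sums carry no number. Of the plate block itself, the count was 0 (0 and 0) with no replicate block and 0 (0 and 0) with the plates of the deposited egg table as the replicate block. With 1 sum left out in turn it ran from 0 to 11 (higher 0 to 2, lower 0 to 11), and was 0 without the M1 or M3 sum of scO or an M2 sum of Plate1 or Plate2. The test between batches called 0 genes, or 2 with voom. The cause of these changes was not tested. The 5 lower genes kept a fold below 0 throughout. Of 1482 values of named genes under alternatives, 1274 kept their direction and side of the threshold, 36 came to pass it, 58 changed sign, all of genes not called, and the others lost a call. By gene, with the main log2 fold in brackets and the values at settings of other sign: Ccnb1 (-0.056) was at -0.23 to 0.065 with 1 sum left out. Cdca8 (-0.0090) was at 0.039, 0.021, 0.010, 0.024, 0.010, 0.025, 0.0047, 0.053 and 0.36 in 9 settings and at -0.10 to 0.11 with 1 sum left out. Kif23 (0.10) was at -0.016 in 1 setting and at -0.067 to 0.21 with 1 sum left out. Mcm2 (-0.16) was at -0.31 to 0.13 with 1 sum left out. Rdx (-0.076) was at 0.038, 0.088 and 0.043 in 3 settings and at -0.23 to 0.088 with 1 sum left out. Psmd2 (-0.042) was at 0.0076, 0.020, 0.089 and 0.082 in 4 settings and at -0.16 to 0.12 with 1 sum left out. Atp5f1b (-0.16) was at 0.0011 in 1 setting and at -0.29 to 0.11 with 1 sum left out. Dnajb1 (-0.024) was at 0.021, 0.019, 0.23 and 0.087 in 4 settings and at -0.16 to 0.093 with 1 sum left out. mt-Co1 (0.55) was at -0.021 in 1 setting and at -0.032 to 0.86 with 1 sum left out. Pecam1 (-0.030) was at 0.0028, 0.013, 0.065, 0.091, 0.060, 0.11, 0.35 and 0.26 in 8 settings and at -0.39 to 0.19 with 1 sum left out. Pou5f1 (0.028) was at -0.052, -0.056, -0.047 and -0.058 in 4 settings and at -0.12 to 0.21 with 1 sum left out. Mapk3 (0.26) was at -0.023 to 0.43 with 1 sum left out. Sums of 2 to 11 eggs and 4 residual degrees of freedom limit all calls.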

Other observations

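Of the lists not described above, 29 genes of chromatin and DNA methylation had a median fold of 0.08, 20 of calcium handling 0.00 and 27 of stress, chaperone and antioxidant genes -0.27, with 20 of those 27 below 0 (Dnajb1, a heat shock cochaperone, at -0.02 ± 0.18). The 10 tested granulosa and cumulus markers had a median of -0.23 with none called by edgeR. Cyp11a1, a steroid synthesis enzyme, was called by DESeq2, which called 62 of 11609 genes in all. Serpine2, a secreted protease inhibitor of cumulus cells, was at -0.51 ± 0.22 (SE; adjusted p = 0.614, edgeR). The endothelial gene Pecam1 was at -0.03 ± 0.29, the macrophage receptor Csf1r at 0.27 ± 0.30 and the pluripotency factor Pou5f1 at 0.03 ± 0.20, none past the test. Among genes of at least 100 CPM, the SD over eggs exceeded that of M3 by the most in M1 for Emsy, Psme3ip1 and Plxna1, by 2.63, 2.49 and 2.29 log2 units averaged over plates, given as values chosen after they were seen.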
